A study of Mus musculus with 9 samples.

Results

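The genes followed here mark the neural crest and the enteric nervous system in the mid-foregut of the mouse embryo. They are the transcription factor genes Sox10, Foxd3 and Tfap2a and the receptor genes Ret, Gfra1, Ednrb, Erbb3 and Ngfr, 8 of the 12393 genes that the array annotation pairs with at least 1 probe set of their own. All probe sets whose only gene symbol was one of these were taken, 17 of 20380 probe sets with a single symbol. The tissue came from wild-type embryos, with no transgene or treatment in any group, and was the stretch of gut tube between the pharyngeal arches and the liver, freed of neural tube and heart. There were 3 groups of 3 biological replicates each, at 16-20 somites (labelled E8.5), 21-25 somites (E9.0) and 26-30 somites (E9.5). Foreguts of 5 to 10 embryos were pooled for each replicate, and their RNA was amplified in 2 rounds for 1 Affymetrix array, so the spread between replicates is that between pools with their arrays. The labels give neither strain nor sex.

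The neural crest is a population of cells that leaves the dorsal neural tube and migrates through the embryo. Crest cells from the level of the hindbrain enter the foregut, move along the gut in its mesenchyme and form the neurons and glia of the enteric nervous system. Sox10, Foxd3 and Tfap2a act in crest specification and maintenance. Ret is the receptor tyrosine kinase for glial cell line-derived neurotrophic factor (GDNF), which it binds together with the co-receptor Gfra1, and Ednrb is the receptor through which endothelin 3 acts on migrating enteric progenitors. Erbb3 is the neuregulin receptor of crest and glial cells, and Ngfr is the low-affinity neurotrophin receptor p75, widely used to mark crest cells. In a dissected tissue of many cell types, fewer crest cells and less RNA per cell cannot be told apart. Several of the genes are also used elsewhere in the embryo: Tfap2a in surface ectoderm, Erbb3 in epithelia and Gfra1 in mesenchyme.

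One array stood apart from the others. In 16-20 somites replicate 2, 3 of the 6 tested genes (Sox10, Erbb3 and Ngfr) had their lowest value of the 9 arrays, and the median deviation of the 6 from their own means was -0.61 on the log2 scale, against 0.06 over all genes. Ret had its highest value there. The same array stood apart in marker genes of neighbouring tissue. The summed signal of 11 hepatic genes was 36978 there against 2679 and 4784 in the other arrays of its stage, 1876 to 9059 at 21-25 and 1772 to 3008 at 26-30 somites. That of 12 cardiac muscle genes was 19387 there against 3551 and 4510 in its stage, 5638 to 6236 at 21-25 and 2590 to 7669 at 26-30 somites, and that of 11 foregut epithelium genes was 17274 against 8456 to 10717 in all others. No gene of these lists was at 0 on any array, and their part in the results was not tested. Krt18, an epithelial keratin of the list that defines the labelled tissue, had 3636 ± 1625, 1317 ± 185 and 1379 ± 271 at the 3 stages. Over the whole interval 4 of the 9 tested genes of that list had log2 differences above 0 and the median was -0.08, between -1.31 ± 0.30 for Krt18 and 0.52 ± 0.30 for Foxa1, a forkhead factor of endoderm (0.27 without 16-20 somites replicate 2). The brightest probe set read less in 3 arrays, replicate 1 of 21-25 somites and replicates 1 and 2 of 26-30 somites, at 27479.8 to 32584, against 43792 to 61749 in the others. None of them was from 16-20 somites, so over the whole interval signal range and stage cannot be fully told apart. Without these 3 narrow-range arrays the last stage has 1 array, whose spread is taken from the other stages, and the difference over the whole interval was 1.02 for Sox10 and 0.68 for Erbb3. The 3′ to 5′ signal ratio of control probe sets ran from 20.9 to 45.3 for Actb and from 16.0 to 40.9 for Gapdh across the arrays. The part of this ratio in the results was not tested.

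Over the whole interval, from 16-20 to 26-30 somites, the brightest Sox10 and Erbb3 probe sets had higher signal, while Ret, Ednrb, Tfap2a and Ngfr differed little in relation to their spread. No difference passed the test over all genes. Sox10 had a log2 difference of 1.03 ± 0.50 (SE, n = 3 per stage) and Erbb3 one of 0.87 ± 0.33, with adjusted p-values of 0.457 and 0.377 in limma. Gfra1 and Foxd3 lay below the filter on low signal and were not tested. Of the 6 tested genes, 0 had an adjusted p under 0.05, as did 0% of the 8675 genes tested. By unadjusted p under 0.05, 1 of the 6 was called, Erbb3, against 11.2% of all genes. A log2 difference above 0 was seen in 5 of the 6, against 50.9% of all genes, and the median was 0.21 against 0.01 over all genes. The smallest adjusted p of any gene in this comparison was 0.231. Without 16-20 somites replicate 2, 5 of the 6 were still above 0, with a median of 0.29, and 0 had an unadjusted p under 0.05. Beside Sox10 and Erbb3, the differences were then 0.25 ± 0.23 for Ret, 0.07 ± 0.31 for Ednrb and -0.51 ± 0.29 for Ngfr.

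**Figure D1:**
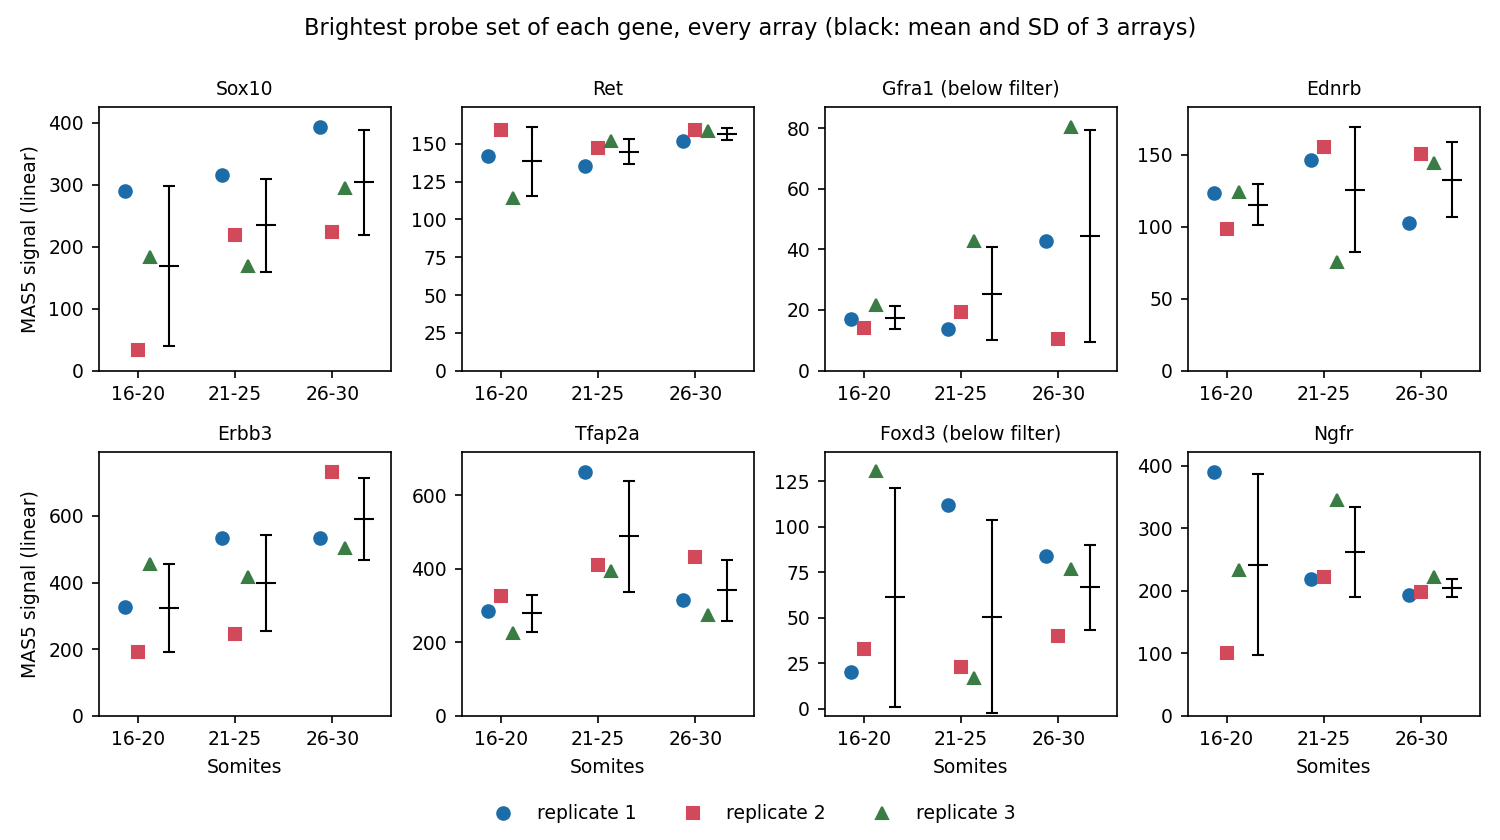
MAS5 signal (linear scale, vertical axis) of the brightest probe set of each of the 8 genes at the 3 somite stages (horizontal axis); each symbol is 1 array, coloured by replicate number, and the black bar is the mean with the SD of 3 arrays. In Sox10 the array of 16-20 somites replicate 2 lies at 33.1, far below the other 8, and in Erbb3 all 3 arrays of 26-30 somites lie above all 3 of 16-20 somites.

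The deposited signal is a linear intensity on a scale set by each probe set's own probes, so no level of one probe set is set against that of another gene. Differences are given on the log2 scale after a pseudocount of 26.1 was added to each signal, which understates the change of dim genes. A probe set was taken as tested if its mean log2 signal reached the 30th percentile, which for genes is a signal of about 75.1 and for all probe sets about 52.6. By this second level 11 of the 17 probe sets passed, and the 6 that did not were both of Gfra1, the one of Foxd3, 1 of Erbb3 and 2 of Ngfr. The 11 that passed belong to the 6 tested genes.

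**Figure D2:**
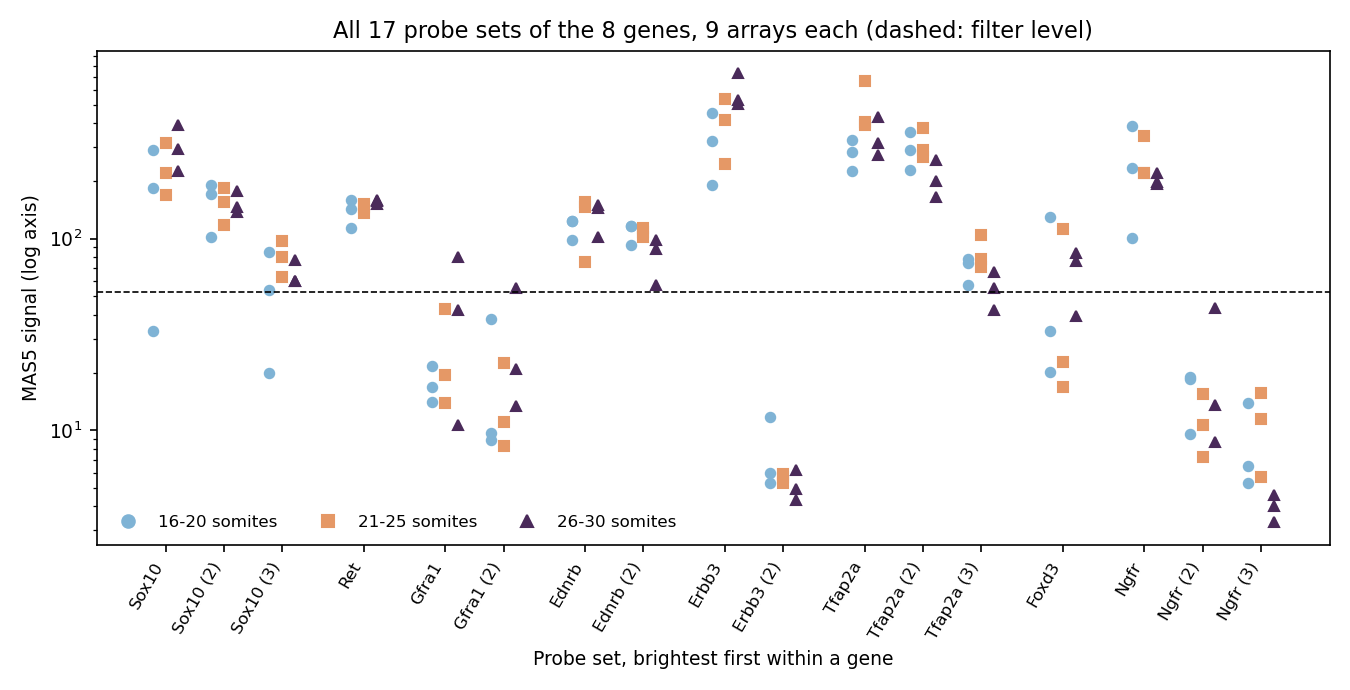
MAS5 signal (log axis) of all 17 probe sets of the 8 genes, brightest first within each gene (horizontal axis), with 9 arrays each marked by stage and the filter level of 52.6 as a dashed line. Levels of different probe sets cannot be compared; the plot shows which probe sets lie at low signal in every array, as the dimmer of Erbb3 and both dimmer ones of Ngfr do, while both of Gfra1 do in 8 of 9 arrays.

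Sox10 encodes the SOX-family factor that keeps enteric progenitors multipotent and is later needed by glia. Its brightest probe set (1451689_a_at) had signals of 290.5, 33.1 and 184.1 in replicates 1, 2 and 3 of 16-20 somites. At 21-25 somites the values were 316, 219.3 and 168.3, and at 26-30 somites 393.8, 224.6 and 294.9. The stages overlapped: replicate 1 of the earliest stage exceeded 1 array of the latest, and the stage means were 169 ± 129, 235 ± 75.0 and 304 ± 85.0 (SD, n = 3). The single value of 33.1 was the lowest of all 9, and it set much of the early mean. The log2 difference between the outer stages, with a 95% interval of -0.05 to 2.12, had an unadjusted p of 0.0594 and the adjusted p of 0.457 in limma. Without 16-20 somites replicate 2 it was 0.33 ± 0.33, and without replicate 1 of that stage it was 1.54 ± 0.48.

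The other 2 Sox10 probe sets did not show the larger difference. The second (1424985_a_at) had 191.5, 102.3 and 170.3 at 16-20, 155.8, 184.9 and 117.4 at 21-25, and 137.6, 146.5 and 176.8 at 26-30 somites. Its stage means of 155 ± 46.6, 153 ± 33.9 and 154 ± 20.6 differed by less than their SDs, and its log2 difference over the whole interval was 0.02 ± 0.26. The third (1425369_a_at) was dimmer, between 19.8 and 97.2, with a difference of 0.30 ± 0.33. All 3 gave differences above 0, of which 0.02 is far smaller than its error. In 2 of the 3, 16-20 somites replicate 2 was the lowest array. Averaging the log2 values of all 3 gave 0.45 ± 0.24 for the gene.

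Foxd3, a forkhead factor of early crest, has 1 probe set (1422210_at), and it was dim and scattered. It read 20.2, 32.8 and 130.4 at 16-20 somites, 111.7, 22.8 and 16.9 at 21-25, and 83.7, 39.7 and 76.5 at 26-30. The range within the earliest stage, 20.2 to 130.4, contained every value of the latest, and 5 of 9 arrays lay under the filter level for probe sets. Without a filter its log2 difference between the outer stages was 0.27 ± 0.53.

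Tfap2a encodes the factor AP-2 alpha, which acts in crest induction and in surface ectoderm. Its brightest probe set (1421996_at) read 284, 326.6 and 226 at 16-20 somites, 663.3, 409.1 and 394.1 at 21-25, and 316.1, 432.4 and 274.3 at 26-30. All 3 arrays of the middle stage lay above all 3 of the first, and the last stage overlapped both. The first step, from 16-20 to 21-25 somites, had a log2 difference of 0.73 ± 0.27 with a 95% interval of 0.15 to 1.31, an unadjusted p of 0.0174 and an adjusted p of 0.376 in limma. The second step, to 26-30 somites, had -0.47 ± 0.27 (adjusted p of 0.998), and the difference between the steps was -1.20 ± 0.46, with an unadjusted p of 0.0223 and an adjusted p of 0.755. The highest value, 663.3, came from 21-25 somites replicate 1. Without that array the first step was 0.50 ± 0.26.

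The other 2 Tfap2a probe sets were lowest at 26-30 somites. The second (1426048_s_at), of a type whose probes can match several transcripts, read 228.1, 292 and 361.1, then 379.9, 266.9 and 291, then 256.5, 199.9 and 165.9 at the 3 stages in order. Its last stage lay wholly below the middle one, with a log2 difference over the whole interval of -0.45 ± 0.25. The third (1421995_at) had stage means of 70.0 ± 11.4, 84.7 ± 17.4 and 55.0 ± 12.2 (SD, n = 3), and a difference of -0.25 ± 0.26. The brightest had 0.26 ± 0.27 over the same interval, so the 3 probe sets of this gene did not share a sign across it, and 0 of them were called by adjusted p in limma. In the first step all 3 had differences above 0.

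Ret had the steadiest signal of the 8 genes. Its single probe set (1421359_at) read 142.2, 159.2 and 114.1 at 16-20 somites, 135.5, 147.2 and 151.7 at 21-25, and 152, 159 and 158.3 at 26-30. Its coefficient of variation over the 9 arrays was 9.96%, the lowest among the 17 probe sets, whose others ran from 18.8% to 77.8%. All 3 values of the last stage lay above those of the middle stage, by a log2 difference of 0.10 ± 0.21 (adjusted p of 0.998 in limma). Over the whole interval the difference was 0.16 ± 0.21, with a 95% interval of -0.31 to 0.63 and an adjusted p of 0.801 in limma. Detection calls were not analysed, so whether the signal of Ret lay above background was not tested.

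Gfra1, the GDNF-binding partner of Ret, was dim in both of its probe sets. The brighter one (1421973_at) read 16.9, 14 and 21.6 at 16-20 somites, 13.8, 19.4 and 42.7 at 21-25, and 42.6, 10.6 and 80.4 at 26-30, so that the lowest and the highest of its 9 values both came from the last stage. The other (1450440_at) lay between 8.30 and 55.3. Without a filter their log2 differences over the whole interval were 0.57 ± 0.36 and 0.30 ± 0.32. MAS5 detection calls were not analysed here, so no statement on presence or absence of the transcript is made.

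Ednrb, the endothelin receptor, had 2 probe sets of moderate signal with differences of opposite sign. The brighter (1423594_a_at) read 123.2, 98.6 and 123.7, then 146.2, 155.2 and 75.7, then 102.5, 150.7 and 144.1 at the 3 stages. The middle stage alone spanned from the lowest to the highest of the 9 values, and the log2 difference between the outer stages was 0.16 ± 0.27 (adjusted p of 0.849 in limma; 95% interval -0.44 to 0.76). The other (1426314_at) read 92.9, 116.6 and 116, then 102, 108.7 and 114.1, then 57.6, 88.7 and 98.7. In that probe set the last stage lay wholly below the middle one, with a difference of -0.34 ± 0.24 over the whole interval.

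Erbb3 had the smallest p of the 8 genes over the whole interval. Its brightest probe set (1434606_at) read 325.5, 191.5 and 454.8 at 16-20 somites, 533.4, 246.5 and 416.7 at 21-25, and 533.3, 731.7 and 505.1 at 26-30. The last stage lay wholly above the first, while the middle stage overlapped both. Of the 6 tested genes this was the 1 whose outer stages did not overlap with later arrays higher, against 11.2% of all genes, and 0 had later arrays all lower, against 10.2%. The stage means were 324 ± 132, 399 ± 144 and 590.0 ± 123 (SD, n = 3). The 95% interval of its log2 difference was 0.15 to 1.60, with an unadjusted p of 0.0225 and the adjusted p of 0.377 in limma. The lowest of the 9 values was again 16-20 somites replicate 2. Without that array the difference was 0.57 ± 0.33 with an unadjusted p of 0.117, while without replicate 3 of the same stage it was 1.14 ± 0.35. The second Erbb3 probe set (1452482_at) lay between 4.30 and 11.7 in all arrays and gave no usable difference.

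Ngfr showed no stage order. Its brightest probe set (1454903_at) read 389.8, 100.8 and 233.1 at 16-20 somites, 219.2, 221.4 and 345.3 at 21-25, and 193.5, 197.7 and 221.2 at 26-30. The earliest stage held both the highest and the lowest of the 9 values, and the SD was 145 there and 14.9 at the last stage, a difference in spread that was not tested. The log2 difference over the whole interval was -0.06 ± 0.37 (adjusted p of 0.962 in limma; 95% interval -0.85 to 0.74). The other 2 probe sets of Ngfr read at most 43.7 and 15.6.

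**Figure D3:**
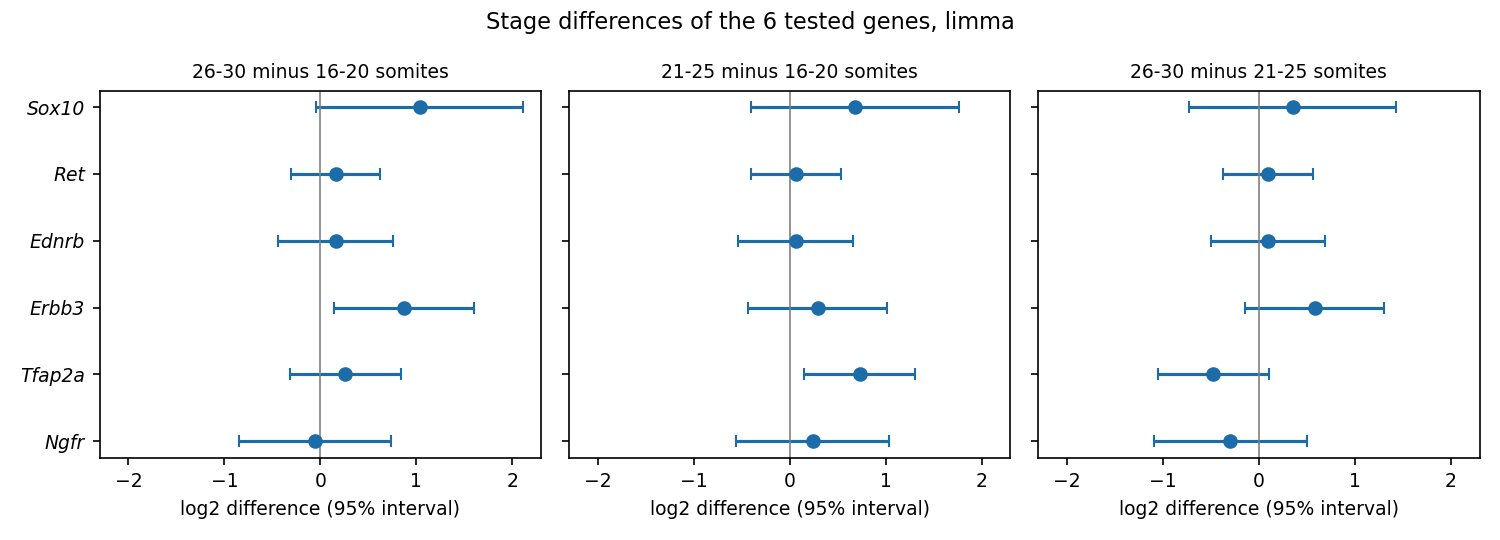
Log2 differences between stages (horizontal axis) of the 6 tested genes, with 95% intervals from limma, for the whole interval, the first step and the second step. The intervals of Erbb3 over the whole interval (0.15 to 1.60) and of Tfap2a in the first step (0.15 to 1.31) lie above 0, and neither passed after adjustment over 8675 genes.

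The first step asks which of these genes already differed at 21-25 somites. All 6 tested genes had a log2 difference above 0, with a median of 0.27, where 50.2% of all genes were above 0 and the median was 0.00. This count rested on 16-20 somites replicate 2: without it 2 of the 6, Ret and Tfap2a, were above 0, with a median of -0.019, against 53.3% and 0.03 over all genes. Most of these differences were small: Ret and Ednrb had 0.06 each, Ngfr 0.24, Erbb3 0.29 and Sox10 0.68, beside the 0.73 of Tfap2a. By adjusted p under 0.05, 0 of the 6 were called, against 0% of all genes. By unadjusted p, 1 was called, Tfap2a, against 11% of all genes. It was also the 1 gene with later arrays all higher, against 6.95%, and 0 had them all lower, against 7.29%. All 11 probe sets that passed the filter were above 0 here, but probe sets of a gene share transcripts and are not independent. Some were above 0 by far less than their error, as 1424985_a_at of Sox10 (0.0018 ± 0.26) and 1426314_at of Ednrb (0.0016 ± 0.24). Without 16-20 somites replicate 2 the difference was -0.024 for Sox10, -0.014 for Erbb3, -0.024 for Ednrb, -0.22 for Ngfr and 0.15 for Ret.

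In the second step, from 21-25 to 26-30 somites, the genes did not share a direction. Erbb3 had a log2 difference of 0.58 ± 0.33, Sox10 one of 0.35 ± 0.50 and Ednrb one of 0.09 ± 0.27, while Tfap2a and Ngfr had -0.47 ± 0.27 and -0.30 ± 0.37. In this step 0 of 6 were called by adjusted p, against 0% of all genes, and 0 by unadjusted p, against 4.09%. The 1 gene whose later arrays were all higher was Ret, against 4.53% of all genes, and 0 had them all lower, against 4.84%. Of the 6, 4 were above 0, against 50.9%. The F test over all stages together called 0 of 6 genes at an adjusted p under 0.05, against 0% of all genes, and 1, Tfap2a, at an unadjusted p of 0.0493, against 9.69%. For the difference between the steps the counts were 0 by adjusted p, against 0%, and 1 by unadjusted p, against 6.31%.

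**Figure D4:**
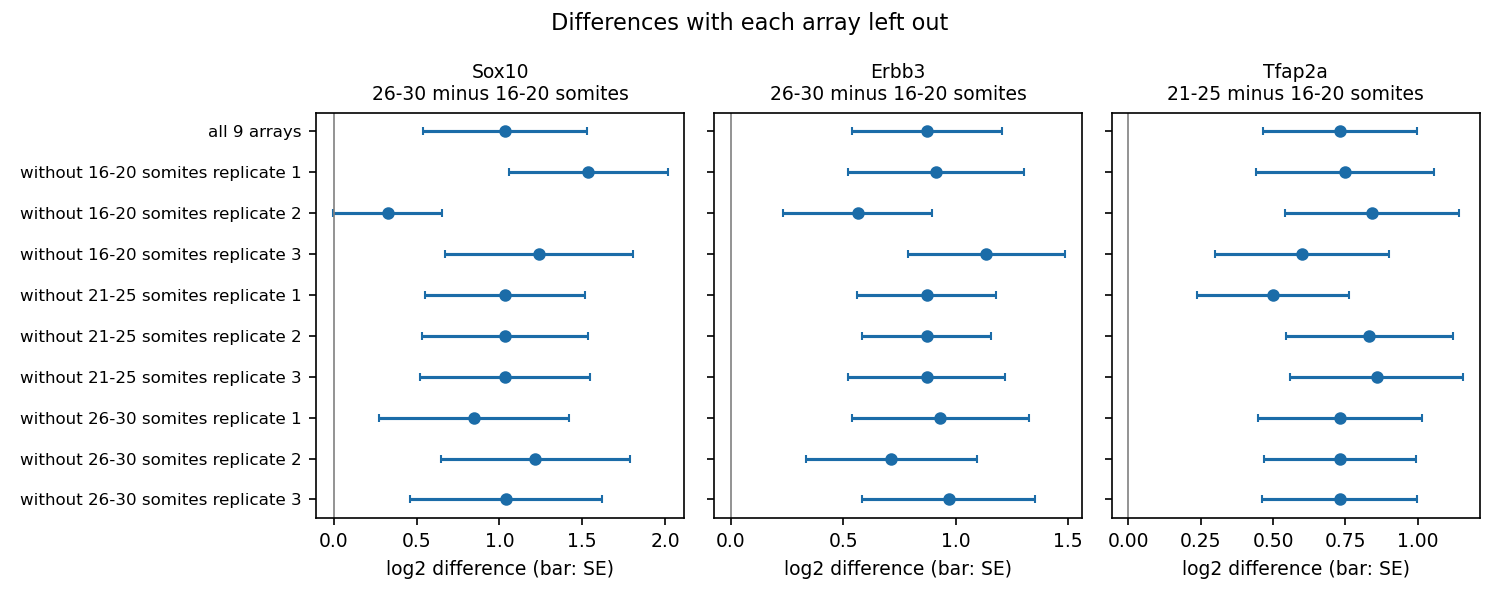
Log2 difference (horizontal axis; bars are the SE) of Sox10 and Erbb3 over the whole interval and of Tfap2a in the first step, from the fit to all 9 arrays (top) and with each array left out in turn. Sox10 is at 0.33 without 16-20 somites replicate 2, and Tfap2a at 0.50 without 21-25 somites replicate 1.

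Ligand and partner receptor genes were read in the same arrays for differences between the stages, and their presence or absence was not called. Of 12 ligand and processing genes listed, 8 had a probe set and 6 were tested. Over the whole interval 5 of the 6 had differences above 0, with a median of 0.25, and 0 were called by adjusted p, against 0% of all genes. Late arrays were all higher in 2 of the 6 and all lower in 0, against 11.2% and 10.2% of all genes. Gdnf, the ligand of Ret and Gfra1 that is made by gut mesenchyme, had the widest difference. It read 203.3, 28.3 and 233.5 at 16-20 somites, 598.9, 418 and 224.5 at 21-25, and 635.7, 589.5 and 515.1 at 26-30. All 3 late values lay above all early ones, and the log2 difference was 2.03 ± 0.51 with an unadjusted p of 0.00180 and an adjusted p of 0.325 in limma. Its lowest value again came from 16-20 somites replicate 2, without which the difference was 1.31 ± 0.35. The signals of Ret over the same arrays stayed between 114.1 and 159.2, and were not tested against background.

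Edn3, the ligand of Ednrb, read 130.2, 18.4 and 66.8, then 122.1, 81.2 and 142, then 142.7, 74 and 152.1 at the 3 stages. The stages overlapped, and its log2 difference of 0.74 ± 0.41 was 0.26 ± 0.35 without 16-20 somites replicate 2. Nrtn, the neurturin gene of the GDNF family, had a difference of 0.06 ± 0.31. Bdnf, a neurotrophin that Ngfr binds, had stage means of 210 ± 30.4, 273 ± 149 and 293 ± 26.0 (SD, n = 3) and a difference of 0.44 ± 0.34. Neuregulin 1, the ligand of Erbb3, was not analysed here. Erbb2, the kinase with which Erbb3 pairs, read 96.5, 103.4 and 37.3 at 16-20 somites and 107.4, 120.6 and 103 at 26-30. Its difference of 0.44 ± 0.29 was 0.11 ± 0.26 without 16-20 somites replicate 3, the lowest array.

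**Figure D5:**
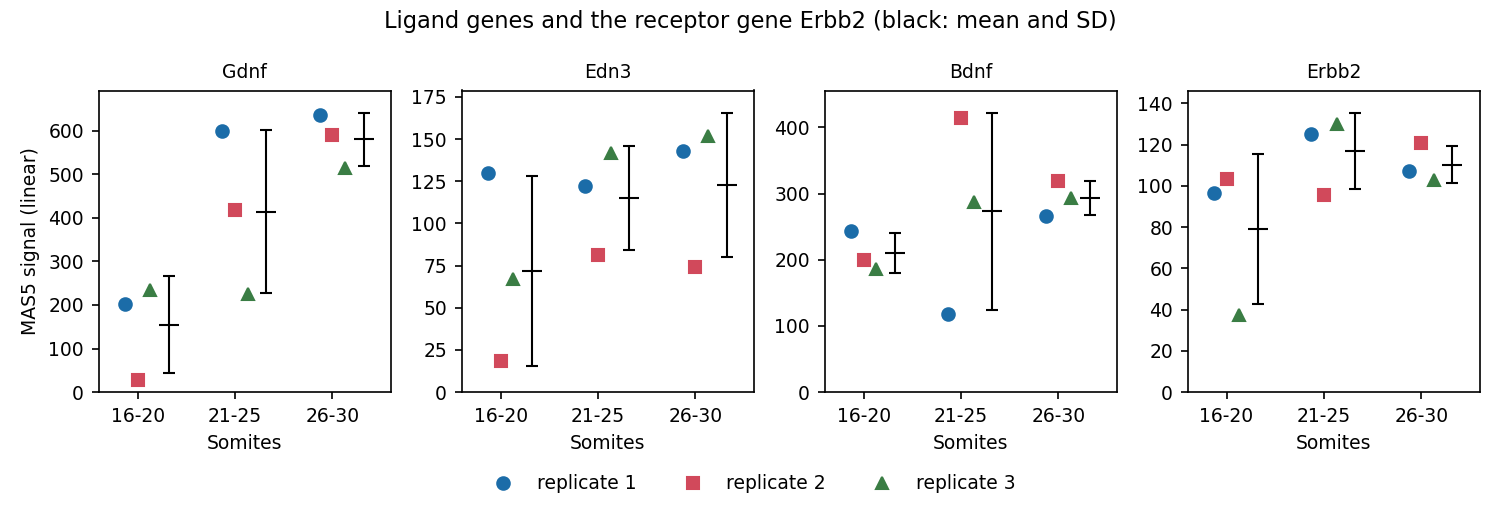
MAS5 signal (linear scale, vertical axis) of the ligand genes Gdnf, Edn3 and Bdnf and of the partner receptor gene Erbb2 at the 3 somite stages (horizontal axis); symbols are single arrays and black bars the mean with the SD of 3 arrays. In Gdnf the arrays of 26-30 somites, at 515.1 to 635.7, lie above those of 16-20 somites, at 28.3 to 233.5.

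Of 7 tested partner receptors, 4 were above 0 over the whole interval, against 50.9% of all genes, with a median of 0.00. By adjusted p 0 were called, against 0% of all genes. Without 16-20 somites replicate 2, 3 of the 7 were above 0, with a median of -0.09. The widest among them was Ntrk2, a neurotrophin receptor kinase that works beside Ngfr, with -0.54 ± 0.33, or -0.26 ± 0.33 without 16-20 somites replicate 2. Egfr, a relative of Erbb3, had -0.22 ± 0.20 (-0.11 without 26-30 somites replicate 3), and Gfra4, a relative of Gfra1, had -0.26 ± 0.29.

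Other transcription factors of the crest had differences of both signs. Of 13 tested, 9 had log2 differences above 0 over the whole interval, against 50.9% of all genes, with a median of 0.34. By adjusted p 0 were called, against 0% of all genes. Late arrays were all higher in 2 of the 13 and all lower in 3, against 11.2% and 10.2% of all genes. Ets1, an ETS factor of cranial crest and of endothelium, had 628.7, 287.6 and 722.2 at 16-20 and 1684.8, 1930.5 and 1494.3 at 26-30 somites, with no overlap and a difference of 1.68 ± 0.34 (adjusted p of 0.260 in limma). Snai1, a repressor of epithelial adhesion genes, had 0.61 ± 0.29. Twist1, which crest and mesoderm share, had -0.90 ± 0.27, and Msx2 had -0.62 ± 0.30, and in both the late arrays lay below all early ones. Sox9 and Pax3, used by early crest, were below the filter, with stage means of 50.4 to 67.5 and 34.2 to 72.9.

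Regulators and products of neurons had differences of both signs. Of 6 tested regulators of enteric and autonomic neurons, 3 were above 0 over the whole interval with a median of -0.0049, and 5 of the 6 without 16-20 somites replicate 2, with a median of 0.08. Late arrays were all higher in 2 of the 6 and all lower in 0, against 11.2% and 10.2% of all genes. Insm1, a zinc finger factor of neuroendocrine progenitors, had 0.71 ± 0.31, and Hoxb5, a factor of enteric progenitors and of lung mesenchyme, had 0.28 ± 0.23, each with late arrays above all early ones. The Insm1 difference was 0.38 ± 0.30 without 26-30 somites replicate 2, its highest array. Phox2a, a homeodomain factor of autonomic neurons, and Meis3, a cofactor of Hox proteins, had -0.14 ± 0.29 and -0.05 ± 0.29. Hand2 was below the filter, with stage means of 5.27 to 11.6. Of 10 tested genes of differentiating neurons, 6 were above 0 with a median of 0.17, and 8 without 16-20 somites replicate 2, with a median of 0.06. The neurofilament gene Nefm read 186.8, 51.8 and 162.6 at 16-20 and 249.2, 315 and 264.3 at 26-30 somites (1.04 ± 0.40, adjusted p of 0.377 in limma), and its difference was 0.59 ± 0.35 without 16-20 somites replicate 2, the lowest array. Stmn2, a regulator of microtubules in growing axons, had 0.63 ± 0.48, or 0.25 ± 0.50 without 16-20 somites replicate 1. The neurofilament gene Nefl had 0.39 ± 0.41, or 0.0047 without 16-20 somites replicate 2. Prph, the peripherin gene of peripheral neurons, had the opposite sign, with -0.46 ± 0.25, or -0.25 ± 0.26 without 16-20 somites replicate 3. Tubb3, the neuronal tubulin, was below the filter, with stage means of 35.6 to 50.3. Of 5 tested glial genes, all 5 were above 0 with a median of 0.34, or 0.23 without 16-20 somites replicate 2. The widest were Sox2 and Fabp7, an early glial marker (0.48 ± 0.34, or 0.18 ± 0.34 without that array), followed by the myelin genes Cnp (0.34 ± 0.30, or 0.12 without it) and Mbp (0.23 ± 0.48). S100b, a marker of mature glia in the same list, was below the filter and not tested. It read 43.5, 45.3 and 117.6 at 16-20 somites, 69.8, 75.8 and 38.8 at 21-25, and 12.1, 14.5 and 11.7 at 26-30, with the late arrays below all others.

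Genes of crest migration and adhesion had 12 of 17 tested members above 0 over the whole interval, against 50.9% of all genes. Their median was 0.18, and 0 were called by adjusted p, against 0% of all genes. Crabp1, a retinoic acid binding protein that is abundant in hindbrain crest and neural tube, had a difference of opposite sign to Sox10 and Erbb3. It read 1504.6, 851 and 1632.6 at 16-20 somites, 535.7, 178.2 and 810.9 at 21-25, and 300.4, 330.3 and 383 at 26-30. Both later stages lay wholly below the first, with a log2 difference over the whole interval of -1.85 ± 0.43 (adjusted p of 0.291 in limma). The guidance genes Efnb2 (1.51 ± 0.42), Robo1 (0.99 ± 0.33) and Ntn1 (0.94 ± 0.41) were on the other side, each with late arrays above all early ones. Under the alternatives the smallest differences were 0.33 for Efnb2, 0.39 for Robo1 and 0.39 for Ntn1. In this list late arrays were all higher in 4 of the 17 and all lower in 1, against 11.2% and 10.2% of all genes. With array weights in limma, 12 of the 33 genes named here outside the 8 and tested under alternatives had an adjusted p under 0.05 over the whole interval: Crabp1 (0.0100), Ets1 (0.0135), Efnb2 (0.0140), Krt18 (0.0166), Robo1 and Isl1 (0.0177 each), Gdnf (0.0197), Twist1 (0.0233), Sox2 (0.0234), Neurog2 (0.0301), Ntn1 (0.0412) and Irx3 (0.0475). None of the 8 genes did (0 of 6 tested). The naming rule took genes with wide differences in this same comparison, so calls among the 33 were favoured beforehand. With array weights 725 of all 8675 tested genes were called, and the 12 and the 0 are not comparable. Crabp1 also passed with only the 6 arrays compared (0.0475), where 4 of the 8675 tested genes were called.

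Genes listed for the neural tube, a tissue that was to be removed, were read in the same arrays. The summed signal of 11 such genes was 2399 to 2658 at 16-20 somites, 1859 to 3374 at 21-25 and 1785 to 1924 at 26-30. Irx3 and Nes had the largest mean signals in this sum, 1051 and 729, so it mainly follows them. Over the whole interval 0 of the 5 tested genes were above 0, against 50.9% of all genes, with a median of -0.40. Without 16-20 somites replicate 2 the count was still 0 and the median was -0.19. Nkx6-1, below the filter and not tested, had stage means of 23.0, 23.9 and 51.1. Irx3 had -0.71 ± 0.26 and Neurog2, a proneural factor, -1.13 ± 0.39, each with late arrays below all early ones. That held for 2 of the 5 tested genes, against 10.2% of all genes. The part of neural tube tissue in the signal of the crest genes was not tested.

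The genes with a pattern most like a crest gene were sought over the 9 arrays by the root mean square difference of log2 values after each gene was centred on its mean. Nearest to Sox10 were Mmaa (0.31) and Sox2 (0.32), where Sox10 itself had a root mean square spread of 0.78. Sox2 read 646.5, 182.3 and 319.9 at 16-20 somites, 858.8, 517 and 507.9 at 21-25, and 846.2, 721.6 and 622.5 at 26-30. Like Sox10, Sox2 was lowest in 16-20 somites replicate 2, and its difference over the whole interval was 1.04 ± 0.37, or 0.64 ± 0.34 without that array. Sox2 is a factor of foregut epithelium as well as of neural progenitors. Nearest to Erbb3 was Pdgfc (0.11, against a spread of 0.53), a platelet-derived growth factor gene, and nearest to Tfap2a was Kit (0.10, against 0.40), a receptor of melanoblasts and blood progenitors. For Ret the nearest were Tpd52 and Il10 (0.08 each, against a spread of 0.12), for Ednrb Polr3g (0.11) and Cyp4b1 (0.12, against 0.27), and for Ngfr Nipbl (0.23) and Orc2 (0.25, against 0.46). The second nearest to Erbb3 and to Tfap2a were Rcn2 (0.18) and Nav2 (0.14). The genes followed here were left out as candidates, so likeness of one of them to another was not examined. The smallest of so many distances over 9 arrays is small by construction, and these values describe likeness only.

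RefSeq promoters (GRCm38.p6), from 250 bases before to 50 after a transcript start, were found for 5 of the 8 genes in 6 windows. A motif of AP-2 factors such as Tfap2a, GCCNNNGGC on either strand, was searched for because this factor is itself one of the 8 genes. It was in 1 of the 6 windows, that of Ednrb, against 16.6% of 32851 promoter windows of the same length. A SOX motif, ACAANG on either strand, was in 0 of the 6, against 41.2%. The GC content of the 6 windows ran from 46.3% to 71.7%, against a median of 52.7%. The 250 bases before the start of Ednrb (chr14:103843702-103843951, minus strand) are shown 5′ to 3′ with the AP-2 match in capitals, as the only window that holds either motif. A match is a string of letters and says nothing of binding in this tissue.
Ednrb: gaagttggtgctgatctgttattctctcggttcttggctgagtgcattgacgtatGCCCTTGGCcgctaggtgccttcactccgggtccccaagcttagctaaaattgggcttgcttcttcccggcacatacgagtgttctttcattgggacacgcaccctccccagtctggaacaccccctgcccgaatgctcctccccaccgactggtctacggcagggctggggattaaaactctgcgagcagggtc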

How the data were processed

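RNA from 9 pools, 3 at each of 3 somite stages, was hybridised to 1 array each. The authors deposited 1 intensity per probe set and array, made with MAS5 per the submitters' processing notes. The MAS5 version and its scaling are not given in the sources, and detection calls were not analysed here. Of 22690 probe sets, 64 were controls, and 20380 of the rest had 1 symbol in the platform annotation, 691 several and 1555 none. Only those with 1 symbol were used. RefSeq held the gene identifier of 20351 of them and altered 0 symbols. A gene was read from its brightest probe set. Signals were taken to log2 with a pseudocount of 26.1 (the 20th percentile), and 8675 genes at or above the 30th percentile of gene means entered limma 3.58.1 (R 4.3.3; stage means, eBayes with trend, two-sided, Benjamini-Hochberg at 0.05). Values without a filter, and those of single probe sets, come from fits over all such probe sets. The number of arrays limits the precision. P-values set a stage difference against the spread between pools with their arrays, moderated over the genes tested.

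Members, gene lists, alternatives and the naming rule were chosen with earlier results of these data known. The rule took all 8 members, up to 4 tested genes per list with the widest difference over the whole interval, and a few fixed genes, of which some are not reported here. No 2 arrays held identical values (0 pairs). The limma step was tested on 10 simulated sets, with 200 of 8675 genes changed at 26-30 somites and independent noise. Over the whole interval it recovered 33.4% of log2 changes of 1, 87.9% of those of 2 and 97.9% of those of 3. On average 7.5 unchanged genes were called. Alternatives were normalization, pseudocount, filter, variance model, array weights, the replicate block, the choice of probe sets, a covariate for signal range and leaving out arrays.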

Additional observations from a re-analysis of the deposited data

How the results depend on the processing

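In limma 0 of the 6 tested members were called at an adjusted p under 0.05 under any of the 24 alternatives for each pair of stages (23 for the other tests). The lowest adjusted p was 0.0867, for Sox10 over the whole interval with array weights, which called 725 genes there against 0 without weights. Of 558 values of member differences under alternatives, 518 kept their sign, and the cause of the other 40 was not tested. Same-numbered arrays did not deviate together (correlations -0.28 to 0.26); with the replicate block 0 members were called and 983 genes had an unadjusted p under 0.05 over the whole interval, against 970.

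Signs turned as follows, on the log2 scale. With array weights the first step of Ednrb was -0.33, and the difference between the steps was -0.13 for Ret and 0.43 for Sox10, and the whole interval of Nrtn was -0.063. With the mean of all probe sets, Ednrb had -0.089 over the whole interval, -0.12 in the second step and -0.15 between the steps, and Tfap2a had -0.15 and Prph 0.023 over the whole interval. With the covariate for signal range Mbp had -0.047. With quantile normalization the difference between the steps was -0.012 for Ednrb and -0.0038 for Ret. When the 3 narrow-range arrays were left out, Ednrb had -0.051 in the first step, the whole interval was 0.048 for Ngfr, 0.18 for Gfra4, 0.35 for Meis3, 0.48 for Phox2a and -0.0082 for Tfap2a, and the difference between the steps was -0.031 for Ret and 0.088 for Sox10. A further choice, made after seeing the data, left out these and 16-20 somites replicate 2. The first step was then -0.14 for Ednrb, -0.24 for Erbb3, -0.11 for Ngfr and -0.24 for Sox10. The whole interval was 0.15 for Gfra4, 0.47 for Meis3, 0.44 for Phox2a and -0.12 for Nefl. The difference between the steps was -0.12 for Ret and 0.80 for Sox10.

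With single arrays left out, the first step ranged from -0.088 to 0.33 for Ednrb, -0.014 to 0.58 for Erbb3, -0.22 to 0.64 for Ngfr, -0.048 to 0.15 for Ret and -0.024 to 1.19 for Sox10. The second step of Ednrb ranged from -0.17 to 0.25 and the whole interval from -0.51 to 0.34 for Ngfr, -0.049 to 0.51 for Mbp, -0.26 to 0.17 for Meis3, -0.021 to 0.14 for Nrtn and -0.44 to 0.063 for Phox2a. The difference between the steps ranged from -0.50 to 0.33 for Ednrb, -0.29 to 0.75 for Erbb3, -0.057 to 0.14 for Ret and -0.84 to 0.37 for Sox10.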

Other observations

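Markers of other tissues that use some of the same genes were summed per array. The signal of 10 surface ectoderm genes, a tissue that also uses Tfap2a, was 760 to 1283 at 16-20 somites, 737 to 1280 at 21-25 and 740 to 964 at 26-30, and 1 of 6 tested genes was above 0 over the whole interval, with a median log2 difference of -0.17. Of 5 tested melanoblast genes 3 were above 0, with a median of 0.06, and their summed signal over 6 genes was 587 to 951 in all arrays. Of 4 tested genes of cranial placodes and sensory neurons, 4 were above 0, with a median of 0.35, led by Isl1, a LIM homeodomain factor that foregut mesenchyme also uses (1.11 ± 0.29). Gut mesenchyme genes had 6 of 10 above 0 and a median of 0.59. By adjusted p in limma 0 genes of these lists were called, against 0% of all genes, and by unadjusted p 0, 0, 1 and 5 were called, all on the higher side, against 11.2% of all genes in both directions. Isl1 is in both the placode and the mesenchyme list, so the 1 is also among the 5. Without 16-20 somites replicate 2, 3 of the 6 surface ectoderm genes were above 0, with a median of -0.10.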
